A study of Rattus norvegicus with 9 samples.

Results

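Mineral forms in bone matrix where phosphate is supplied and pyrophosphate, its inhibitor, is removed. The 9 genes described here belong to that supply. Enpp1 and Ankh provide extracellular pyrophosphate, Alpl and Phospho1 are phosphatases that release phosphate, and Slc20a1 and Slc20a2 carry phosphate into cells. Anxa5 is an annexin of matrix vesicles, and Phex and Fgf23 belong to the hormone axis by which bone sets the phosphate level of the blood. The genes were chosen by these known roles, with earlier results of these data known. Each was measured by every probe set that the platform annotation assigns to that gene alone. All 9 genes were measured, by 11 of the 31042 probe sets tested, and Ankh and Slc20a2 had several probe sets.

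Pyrophosphate is made outside the cell from nucleotide triphosphates by the ectoenzyme ENPP1. Its supply also depends on ANKH, a membrane protein that governs the release of pyrophosphate and ATP from cells. Pyrophosphate binds growing crystals and blocks mineral deposition. Tissue-nonspecific alkaline phosphatase, the product of Alpl, cleaves it to phosphate, while PHOSPHO1 releases phosphate from phosphocholine inside matrix vesicles, the small particles in which crystals first form.

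The samples were whole bone from male CD rats of a labelled weight of 110 (in grams by the methods), with 4 arrays of skull bone (calvaria, the vault of the skull) and 5 arrays of limb bone (ulna, a long bone of the forelimb). The arrays compare basal expression between a flat bone and a long bone that differ in origin and loading, and the labels give no treatment, genotype or age. Each extract came from a pool of several rats according to the methods, so that the p-values measure the spread between these pools. The methods take skull and limb bones from 5 groups of 4 rats, so both sites may share rats. The main test treats all arrays as independent. One label field names the calvaria for 4 limb arrays, limb 1 to limb 4, against their titles and source names.

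Values below are scaled signals, the MAS5 intensity of a probe set in arbitrary linear units with every array set to the same median, and differences are skull minus limb on the log2 scale. Levels are not compared between probe sets. Site markers followed the titles. The summed signal of Hoxa9, Hoxa10, Tbx5 and Shox2, genes of limb position, lay between 19.16 and 39.12 on the skull arrays and between 270.7 and 369.9 on the limb arrays, limb 1 to 4 included. Array medians lay between 33.01 and 36.59 signal units. The summed signal of the 4 measured osteoblast markers was 22720 to 28880 on skull arrays and 17540 to 25840 on limb arrays, and 1 of them, Ibsp, was higher in the skull. The others, Bglap, Col1a1 and Col1a2, lay near the 100th percentile of mean signal and dominated the sum. Differences at so high a signal may be understated, which was not tested. Sp7 and Runx2 had no probe set naming them alone, and the paper lists Sp7 as higher in the skull. Several other cell types had markers with larger measured differences. All 5 measured osteoclast markers were higher in the skull, with summed signals of 9053 to 13180 on skull arrays and 3236 to 4084 on limb arrays. All 6 skeletal muscle markers were lower in the skull, at 44.75 to 72.6 on skull arrays and 6848 to 16440 on limb arrays. All 5 measured erythroid markers were lower too (skull 2819 to 3936, limb 7528 to 8889), as were all 3 measured neutrophil markers (skull 4287 to 5726, limb 8348 to 10470). The muscle marker Tnnc2 was at or below 8.34 units on every skull array, the highest signal of the 3 absent-control probe sets. Of 5 chondrocyte markers 1 was lower in the skull, and Col9a1 was at or below that control level on every array. In whole bone, fewer cells of a type and less RNA per cell cannot be told apart, and the part of these cell types in the results below was not tested.

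Of the 9 genes, 6 passed the test (limma, adjusted p below 0.05 over all probe sets), 5 of them higher in the skull and 1 lower, and 3 did not pass. Among all probe sets, 21.5% passed in either direction, 9.59% higher and 11.9% lower in the skull. Among 14217 genes, each read from its brightest probe set, 14.1% passed higher and 18.1% lower. By at least 2-fold, 8.17% of these genes passed in either direction. By probe set, 7 of 11 passed, 6 of them higher. 10 of the 11 probe sets had a mean signal above the median, and among all probe sets at or above the median 37.5% passed. Enpp1 and Ankh, with 3 probe sets, also differed by at least 2-fold, as did 6.24% of all probe sets in either direction and 2.89% higher in the skull. The signals of the sites were separate, with no overlap, for 7 of the 11 probe sets, against 21.3% of all probe sets. Shares for 2-fold and for no overlap were not computed among probe sets at or above the median. The study had already listed Enpp1 and Ankh among its differing genes from these arrays, so that the counts are not independent of it. The median log2 difference, skull minus limb, was 0.53 over the 11 probe sets and -0.01 over all probe sets.

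**Figure D1:**
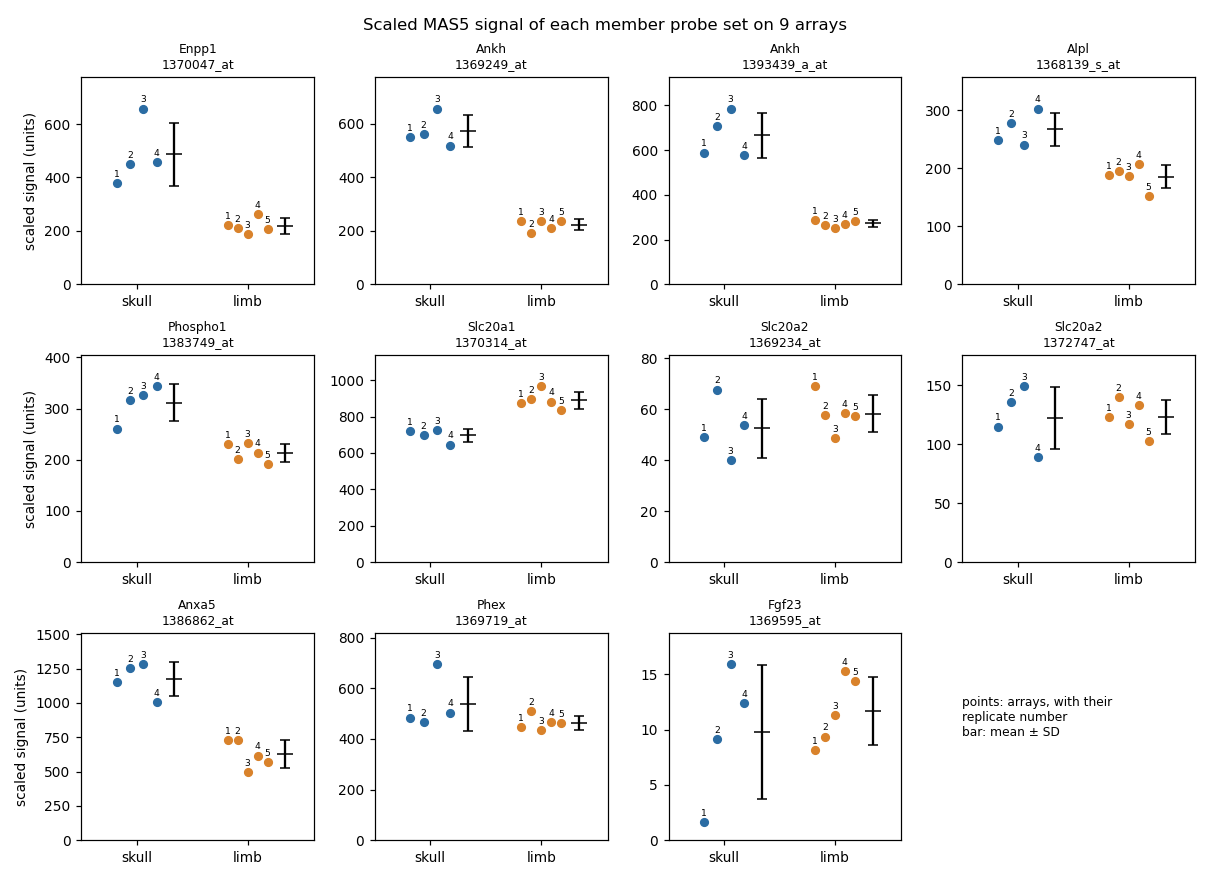
Scaled MAS5 signal (linear units, vertical axis from 0) of the 11 probe sets on each skull and limb array, numbered by replicate, with the mean and SD of each site. Enpp1, Ankh, Alpl, Phospho1 and Anxa5 lay higher on all 4 skull arrays than on any limb array, Slc20a1 lay lower on all 4, and Slc20a2, Phex and Fgf23 overlapped.

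Both suppliers of pyrophosphate were more than 2-fold higher in the skull. Enpp1, the ectonucleotide pyrophosphatase that generates pyrophosphate from ATP, had signals of 380, 449, 658 and 457 on skull arrays 1 to 4 and of 222, 210, 188, 264 and 207 on limb arrays 1 to 5. All skull arrays lay above all limb arrays, and skull 3 stood above the other skull arrays. The mean was 486 ± 120 for skull and 218 ± 28.1 for limb (SD, n = 4 and 5), a skull:limb ratio of 2.23. The log2 difference was 1.13 ± 0.16 (SE), with a 95% interval of 0.78 to 1.49 (limma, adjusted p = 0.000895). Without skull 3 it was 0.98, which is under 2-fold and still passed the test (limma, adjusted p = 0.000968).

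Ankh, whose loss causes ectopic mineralization of joints in mice, was measured by 2 probe sets. The probe set 1369249_at gave 548, 562, 656 and 518 on skull arrays 1 to 4 and 236, 190, 235, 211 and 235 on limb arrays 1 to 5. The lowest skull array was thus above the highest limb array. Its mean was 571 ± 59.9 for skull and 222 ± 20.7 for limb (SD, n = 4 and 5), a ratio of 2.58, and its log2 difference was 1.37 ± 0.09 (95% interval 1.16 to 1.57, limma, adjusted p = 3.15e-05). The probe set 1393439_a_at gave 589, 709, 786 and 580 in the skull and 289, 266, 253, 269 and 284 in the limb. The sites were again separate, with skull 3 highest. The means were 666 ± 99.3 for skull and 272 ± 14.4 for limb (SD), a ratio of 2.44, and the log2 difference was 1.28 ± 0.10 (95% interval 1.06 to 1.5, limma, adjusted p = 4.82e-05). Over the 9 arrays the log2 signals of the 2 Ankh probe sets had a Pearson r of 0.99, and of 0.64 once the site means were removed, as a description of arrays that share their bones and labelling.

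**Figure D2:**
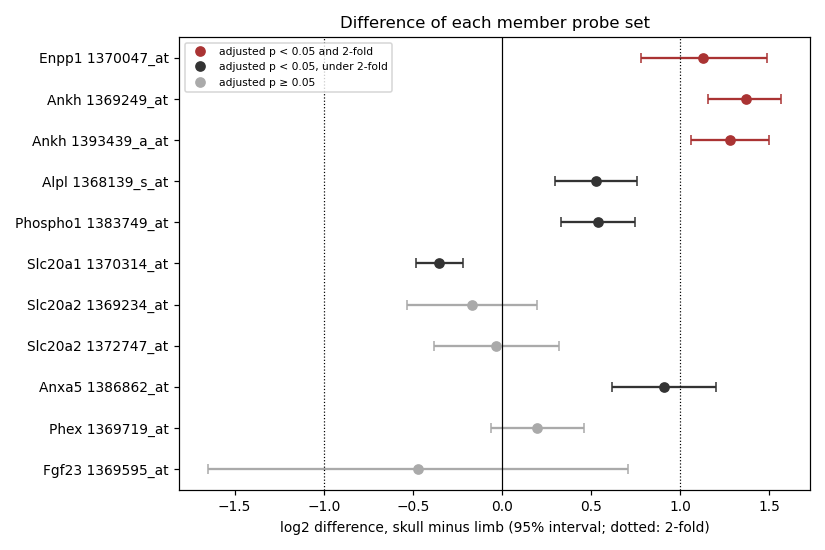
Log2 difference of each probe set, skull minus limb, with its 95% interval (horizontal axis, log2 units), and dotted lines at 2-fold. The intervals of Enpp1, Ankh, Alpl, Phospho1 and Anxa5 lie above 0, that of Slc20a1 lies below it, and those of Slc20a2, Phex and Fgf23 cross it.

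The phosphatases that release phosphate were also higher in the skull, by less than 2-fold. Alpl gave 248, 278, 241 and 303 on skull arrays 1 to 4 and 189, 195, 186, 207 and 152 on limb arrays 1 to 5. No limb array reached the lowest skull array, and limb 5 was the lowest of all. The means were 268 ± 28.4 in the skull and 186 ± 20.3 in the limb (SD, n = 4 and 5), a ratio of 1.44, with a log2 difference of 0.53 ± 0.10 (95% interval 0.30 to 0.76, limma, adjusted p = 0.00534). Phospho1, which is abundant in mineralizing cartilage and bone, gave 261, 317, 326 and 343 in the skull and 230, 201, 232, 214 and 191 in the limb. The sites did not overlap, and skull 1 was the nearest to the limb arrays. The means were 312 ± 35.4 for skull and 214 ± 18 for limb (SD), a ratio of 1.46, with a log2 difference of 0.54 ± 0.09 (95% interval 0.33 to 0.75, limma, adjusted p = 0.00298). The intervals of both phosphatases ended below those of both Ankh probe sets. The difference between genes was not tested.

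Anxa5, a calcium-dependent phospholipid-binding protein abundant in matrix vesicles, was higher in the skull as well. Its signals were 1152, 1257, 1281 and 1004 on skull arrays 1 to 4 and 732, 727, 495, 617 and 571 on limb arrays 1 to 5. Every skull array exceeded every limb array, and limb 3 was the lowest. The means were 1174 ± 126 in the skull and 628 ± 102 in the limb (SD, n = 4 and 5), a ratio of 1.87. The log2 difference was 0.91 ± 0.13 (95% interval 0.62 to 1.2, limma, adjusted p = 0.00106), below 2-fold, with an interval that reached past it.

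Of the 5 genes that were higher in the skull, 4 had an entry in the RefSeq promoter table (GRCr8). Their 250 bases before the start of transcription are printed as a description. Each is on the strand of its gene, 5′ to 3′, in lower case, with capitals for GGGCGG (the GC box, a site type bound by SP1-family factors) or its reverse complement.
Ankh, chr2:79883201-79883450, plus strand: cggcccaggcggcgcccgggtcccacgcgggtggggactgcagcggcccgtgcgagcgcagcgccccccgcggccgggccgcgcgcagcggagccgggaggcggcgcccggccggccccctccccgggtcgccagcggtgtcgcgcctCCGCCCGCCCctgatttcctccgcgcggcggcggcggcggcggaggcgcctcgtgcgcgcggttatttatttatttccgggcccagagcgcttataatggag
Alpl, chr5:155289786-155290035, minus strand: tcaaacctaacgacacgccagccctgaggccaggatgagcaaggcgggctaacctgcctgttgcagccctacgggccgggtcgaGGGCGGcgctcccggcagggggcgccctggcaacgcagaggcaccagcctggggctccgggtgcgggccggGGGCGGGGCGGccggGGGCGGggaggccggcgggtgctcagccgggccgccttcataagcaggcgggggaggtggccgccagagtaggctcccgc
Phospho1, chr10:81258560-81258809, plus strand: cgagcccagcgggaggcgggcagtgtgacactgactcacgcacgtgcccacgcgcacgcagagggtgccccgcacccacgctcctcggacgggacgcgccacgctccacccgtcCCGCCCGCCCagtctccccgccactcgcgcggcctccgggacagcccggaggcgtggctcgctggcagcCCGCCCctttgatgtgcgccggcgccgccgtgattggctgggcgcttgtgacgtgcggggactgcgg
Anxa5, chr2:121272697-121272946, minus strand: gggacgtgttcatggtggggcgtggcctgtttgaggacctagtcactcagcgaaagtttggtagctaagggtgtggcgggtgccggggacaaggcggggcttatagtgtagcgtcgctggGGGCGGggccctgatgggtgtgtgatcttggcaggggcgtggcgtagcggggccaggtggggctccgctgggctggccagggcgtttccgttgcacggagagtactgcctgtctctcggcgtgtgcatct
All 4 were rich in G and C, with 79.2% in Ankh, 76.0% in Alpl, 76.0% in Phospho1 and 65.2% in Anxa5, against a median of 51.2% over the 33469 promoters of the table. GGGCGG on either strand was found 2 times in Ankh (overlapping), 4 times in Alpl (2 of them overlapping), 3 times in Phospho1 (2 of them overlapping) and 1 time in Anxa5, and at least once in 30.5% of all promoters. GGGCGG was searched after the other motifs had been seen to give no match. Its share among promoters of similar G and C content was not computed, and its part in the site differences was not tested. Neither ACCACA (the core of the motif bound by RUNX factors) nor TATAAA (the TATA box) was found on either strand in any of the 4. ACCACA was present in 14.5% of all promoters and TATAAA in 12.9%.

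The widely expressed phosphate transporters behaved otherwise. Slc20a1, the sodium-phosphate cotransporter also called PiT-1, gave 722, 698, 725 and 646 on skull arrays 1 to 4 and 872, 894, 965, 882 and 834 on limb arrays 1 to 5. All skull arrays lay below all limb arrays. The means were 698 ± 36.6 in the skull and 890 ± 47.6 in the limb (SD, n = 4 and 5), a ratio of 0.785, and the log2 difference was -0.35 ± 0.06 (95% interval -0.48 to -0.22, limma, adjusted p = 0.0024). It was the only one of the 9 genes that passed the test as lower in the skull. The erythroid, neutrophil and skeletal muscle markers given above were also lower in the skull, and their part in this difference was not tested.

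Slc20a2, the related cotransporter PiT-2, did not pass the test with either probe set. The probe set 1369234_at gave 49.2, 67.8, 40 and 53.7 in the skull and 69.0, 57.9, 48.9, 58.5 and 57.5 in the limb, with overlap between the sites. Its log2 difference was -0.17 ± 0.16 (95% interval -0.53 to 0.20, limma, adjusted p = 0.546). The probe set 1372747_at gave 115, 136, 149 and 89.4 in the skull and 123, 140, 117, 133 and 103 in the limb. The skull arrays included both the highest and the lowest signal, and the log2 difference was -0.03 ± 0.15 (95% interval -0.38 to 0.32, limma, adjusted p = 0.934). Both intervals exclude a 2-fold difference in either direction. The sign of the difference of 1372747_at turned under several settings, to 0.03 with the signals as deposited and to 0.11 without skull 4.

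The hormone axis showed no difference that passed the test. Phex, an osteocyte and osteoblast membrane peptidase whose loss raises FGF23 and lowers blood phosphate, gave 484, 468, 694 and 504 on skull arrays 1 to 4 and 446, 509, 434, 466 and 461 on limb arrays 1 to 5. Skull 3 stood far above all other arrays, and the rest overlapped. The means were 538 ± 106 in the skull and 463 ± 28.5 in the limb (SD, n = 4 and 5), and the log2 difference was 0.20 ± 0.11 (95% interval -0.06 to 0.46, limma, adjusted p = 0.281). Without skull 3 it was 0.07. The summed signal of the 4 osteocyte markers (Dmp1, Mepe, Sost and Pdpn) was 5334 to 7677 on skull arrays and 3984 to 4760 on limb arrays, and 2 of them were higher in the skull. For Sost the brightest probe set, 1368969_at, was at 0.19 ± 0.15 (limma, adjusted p = 0.389), whereas the paper lists Sost as higher in the skull. The source of this disagreement was not tested.

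Fgf23, the hormone that osteocytes secrete to make the kidney excrete phosphate, was near background. Its signals were 1.64, 9.12, 15.9 and 12.4 on skull arrays 1 to 4 and 8.14, 9.37, 11.3, 15.3 and 14.4 on limb arrays 1 to 5. Of the 9 arrays, 2 were at or below the highest absent-control signal of 8.34, and its mean signal lay at the 26.6th percentile of all probe sets. The log2 difference was -0.47 ± 0.52 (95% interval -1.65 to 0.71, limma, adjusted p = 0.597), and this interval includes a 2-fold lower signal in the skull. Without skull 1 the difference turned to 0.10, and with a floor at the 25th percentile it was -0.02.

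Within a site, the order of the arrays differed between genes. Leaving out Fgf23, skull 3 was the highest skull array for 7 of 10 probe sets, namely those of Enpp1, Ankh, Slc20a1, Anxa5 and Phex and 1372747_at of Slc20a2. Skull 4 was highest for both phosphatases and lowest for 5 probe sets. In the limb, limb 1 was highest for 4 probe sets, limb 3 was lowest for 5 and limb 5 for 4. With the site means removed, Enpp1 had a Pearson r of 0.78 with Phex and Alpl of 0.54 with Phospho1 over the 9 arrays. Between Enpp1 and Ankh r was 0.36 for 1369249_at and 0.71 for 1393439_a_at, and between Alpl and Ankh it was -0.61 and -0.39 for the same probe sets. The 2 Slc20a2 probe sets had an r of -0.10 with each other. These values describe 9 arrays whose probe sets share extract and labelling.

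**Figure D3:**
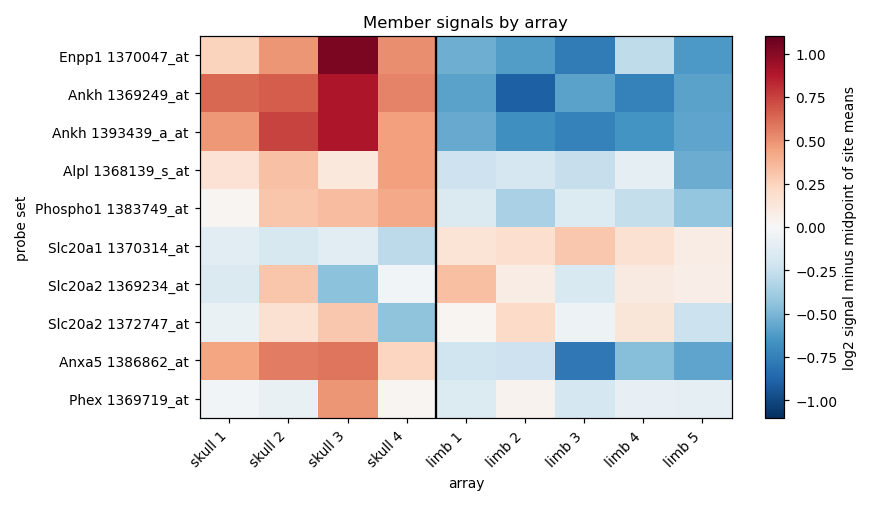
Log2 signal of 10 probe sets (rows; Fgf23 left out) on the skull and limb arrays (columns), each minus the midpoint of the site means (colour, log2 units). Enpp1 and both Ankh probe sets have their highest value on skull 3, Slc20a1 has the opposite colours to the rows above it, and Slc20a2 shows no block by site.

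With limb 5 as the sole limb array, the only one whose fields all name limb bone, the signs were as in the full comparison except for 1372747_at of Slc20a2 (0.22). The log2 differences were 1.2 for Enpp1, 1.27 and 1.22 for Ankh, 0.81 for Alpl, 0.70 for Phospho1, 1.03 for Anxa5 and -0.26 for Slc20a1. In this comparison the spread came from the skull arrays and the lone limb array was assumed to vary like them. Ankh 1369249_at passed the test (limma, adjusted p = 0.0378) and no other of the 11 probe sets did.

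The genes whose signals were most like those of Enpp1 and Ankh over the 9 arrays were found among 12349 probe sets that name a single gene and lie at or above the median signal. For Enpp1 they were Limch1 (Pearson r 0.992), Podnl1 (0.991) and Pcgf3 (0.990), with log2 differences of 1.09, 0.95 and 0.48. For Ankh 1393439_a_at they were Cyp1b1 (0.997), Angpt2 (0.996) and Mmp16 (0.996), with log2 differences of 1.16, 1.69 and 1.33. Such r values rest mainly on the step between the sites.

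A further 55 genes of the same chemistry in 4 lists, of which 54 were measured, were read from the brightest probe set of each gene, with p adjusted over 14217 genes. Of all genes, 14.1% passed higher in the skull, 18.1% passed lower, and 8.17% passed in either direction by at least 2-fold. The median log2 difference of all genes was -0.02. Of the 54 genes, 24 passed higher and 11 lower, and 15 passed by at least 2-fold. Some of these genes were among those that the study listed as differing on the same arrays, so that their counts are not independent of it. The lists were also chosen with earlier results of these data known. The shares of all genes were not matched to the listed genes for signal.

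Among 16 genes of pyrophosphate and nucleotide handling, 5 were higher in the skull, 5 lower and 6 did not pass, with a median log2 difference of -0.15. Panx3, a channel protein of osteoblasts and chondrocytes that releases ATP, had a mean of 108 ± 8.94 on skull arrays and 41.1 ± 8.07 on limb arrays (SD, n = 4 and 5), a log2 difference of 1.41 ± 0.16 (limma, adjusted p = 0.000156). Of the relatives of Enpp1, Enpp3 (1.39 ± 0.20, limma, adjusted p = 0.000609) and Enpp6 (1.02 ± 0.25, adjusted p = 0.0126) were higher by over 2-fold, Enpp2 was higher (0.42 ± 0.09, adjusted p = 0.00741), Enpp4 was lower (-0.90 ± 0.08, adjusted p = 4.49e-05) and Enpp5 was at -0.16 ± 0.09 (adjusted p = 0.202). Enpp6 was under 2-fold without skull 3 (0.91), limb 2 (0.95) or limb 5 (0.85) and with 16 units added before the log (0.72). It was also under 2-fold with a replicate block (0.85), which left out limb 5 as well. Abcc6, a transporter whose ATP export from liver is a source of plasma pyrophosphate, was lower at -1.5 ± 0.32 (limma, adjusted p = 0.00528), with 3 of the 4 skull arrays at or below 8.34. Its difference was under 2-fold with a floor at the 25th percentile (-0.84) or with 16 units added (-0.61). The nucleoside transporter Slc29a1 was higher (0.70 ± 0.11, limma, adjusted p = 0.000979), and the cytosolic pyrophosphatase Ppa1 was at -0.15 ± 0.13 (adjusted p = 0.425).

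Of 12 matrix vesicle genes, 5 were higher in the skull, 5 lower and 2 did not pass, with a median of 0.23. Smpd3, the neutral sphingomyelinase needed for skeletal mineralization in mice, had a mean of 918 ± 42.1 on skull arrays and 344 ± 40.4 on limb arrays (SD, n = 4 and 5), a log2 difference of 1.42 ± 0.09 (limma, adjusted p = 9.22e-06). Beside Anxa5, the annexins divided, with Anxa4 higher (1.1 ± 0.10, limma, adjusted p = 5.15e-05) and Anxa3 lower (-1.06 ± 0.09, adjusted p = 3.66e-05). Anxa3 was under 2-fold without skull 4 (-0.96) and with quantile normalization (-0.98). The vesicle tetraspanin Cd63 was higher (0.52 ± 0.10, limma, adjusted p = 0.00308) and the carbonic anhydrase Car2 lower (-0.87 ± 0.09, adjusted p = 0.000117). Anxa3 is also expressed by neutrophils and Car2 by erythroid cells and osteoclasts, whose marker sums are given above, and the part of these cells was not tested.

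Of 18 measured genes of phosphate hormones and transporters (Cyp24a1 was not measured by a probe set naming it alone), 9 were higher in the skull, none was lower and 9 did not pass, with a median of 0.52. Furin, a protease that cleaves FGF23, was the lower gene nearest to the threshold, at -0.31 ± 0.10 (limma, adjusted p = 0.0505, unadjusted p = 0.0163). Xpr1, the phosphate exporter, had a mean of 286 ± 55.7 on skull arrays and 96.1 ± 19.1 on limb arrays (SD, n = 4 and 5), a log2 difference of 1.58 ± 0.17 (limma, adjusted p = 0.000113). The receptors of parathyroid hormone (Pth1r, 1.54 ± 0.13, limma, adjusted p = 3.99e-05) and of vitamin D (Vdr, 2.27 ± 0.41, adjusted p = 0.00225, with 2 limb arrays at or below 8.34) were higher by over 2-fold. For Vdr the size depended on the treatment of low signals, with a difference of 1.27 when 16 units were added before the log. Fgfr1, a receptor of FGF23, was also higher by over 2-fold (1.02 ± 0.11, limma, adjusted p = 0.000139). It was under 2-fold without skull 3 (0.96), skull 4 (0.97) or limb 1 (0.98) and with array weights (0.97). Kl, klotho, the co-receptor of FGF23, was at or below 8.34 on 8 of the 9 arrays. The osteocyte phosphoproteins Dmp1 (0.50 ± 0.12, limma, adjusted p = 0.0089) and Mepe (0.54 ± 0.13, adjusted p = 0.0122) were higher by under 2-fold, and the mitochondrial phosphate carrier Slc25a3 was at 0.15 ± 0.08 (adjusted p = 0.207).

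Among 8 genes whose products bind mineral or modify those that do, 5 were higher in the skull, 1 lower and 2 did not pass, with a median of 0.57. Both enzymes of the vitamin K cycle that carboxylates osteocalcin were higher, Ggcx by 1.55 ± 0.12 (limma, adjusted p = 2.3e-05) and Vkorc1 by 1.43 ± 0.11 (adjusted p = 2.21e-05), while osteocalcin itself (Bglap) was at 0.19 ± 0.15 (adjusted p = 0.37). The mean signal of Bglap lay near the 100th percentile, where a difference may be understated. Ibsp, a nucleator of mineral, was higher by 1.06 ± 0.11 (limma, adjusted p = 0.000113, and 0.96 without skull 3), and Spp1, osteopontin, an inhibitor of crystal growth, by 0.76 ± 0.11 (adjusted p = 0.00057). Ahsg, the liver protein fetuin-A, was at -1.30 ± 0.38 (limma, adjusted p = 0.0255), with 6 arrays at or below 8.34, and did not pass without skull 1, skull 3, limb 2, limb 4 or limb 5 (adjusted p = 0.0514 to 0.0712). With 16 units added its difference was -0.36.

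**Figure D4:**
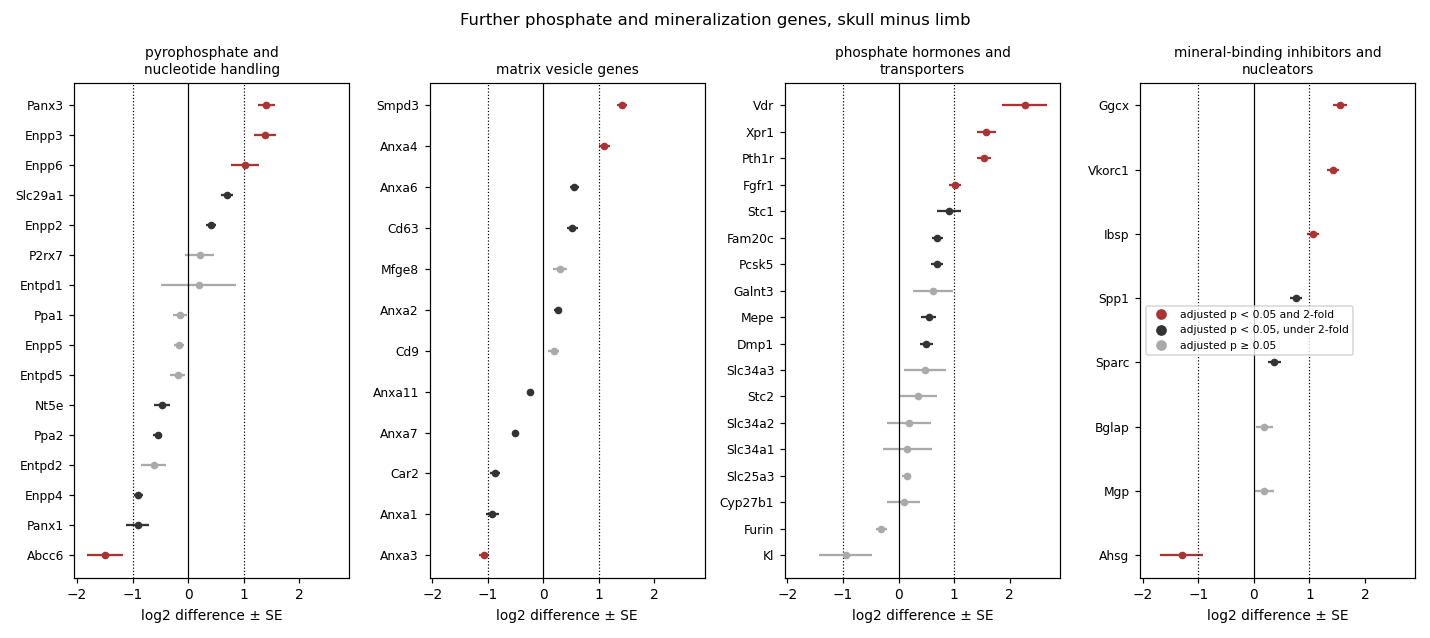
Log2 difference, skull minus limb, with its SE (horizontal axes, log2 units) of the 54 measured genes in 4 panels, 1 for each list. The 18 genes of phosphate hormones and transporters include 9 that passed higher and none that passed lower, while the matrix vesicle panel holds 5 in each direction.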

How the data were processed

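Whole bone of male CD rats, freed of sutures or epiphyses and of soft tissue, was ground, extracted and labelled by a single round of cDNA synthesis with in vitro transcription, then hybridised to Affymetrix rat genome arrays. Samples were grouped by title and source name. The deposited values are intensities: 1 MAS5 signal (version not given) per probe set and array, linear and scaled by the authors to a common trimmed mean. The study further normalised per chip and per gene, and its p-adjusted, 2-fold lists were not used.

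Of 31099 probe sets, 57 controls were left out. A single symbol was given for 20826 probe sets, several for 436 and none for 9780, and the symbols of 20758 probe sets matched RefSeq (GRCr8). Each array was divided by its median and multiplied by the mean of the medians, floored at the 10th percentile (2.51) and taken to log2. A log2 difference understates that of signals at the floor. Skull minus limb was tested by limma 3.58.1 (R 4.3.3, lmFit, eBayes with an intensity trend, two-sided, Benjamini-Hochberg over 31042 probe sets, adjusted p below 0.05), with 2-fold as a log2 difference of 1. Means and SDs are of unfloored scaled signals, and their number, 4 and 5 arrays, limits the precision. No 2 arrays were identical and no value was at or below 0.

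The genes, lists and alternatives were chosen with earlier results of these data known, and limb 5 alone and GGGCGG were added after the values were seen. Named pathway genes are those past both thresholds and the 2 of highest mean log2 signal in each list. Enpp2, Enpp4, Enpp5, Mepe, Furin and Kl are outside that rule and were chosen after their values were seen. Promoters were planned for genes past both thresholds, and those of Alpl, Phospho1 and Anxa5 were added after their values were seen. Alternatives were the signals as deposited, quantile normalization, other floors and pseudocounts, a filter on dim probe sets, array weights, no trend, the methods' one-way test, a replicate block and leaving out each array. The replicate block used only arrays whose number occurs at both sites, so that limb 5 did not enter.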

Additional observations from a re-analysis of the deposited data

Results flagged for a closer look

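Phex was flagged by a skull array far from the others of its site. Its signal was 694.4 on skull 3, against 468.0 to 504.0 on the other skull arrays, a gap of 0.839 of the range of the 4 skull arrays, past the limit of Dixon's test. In all, 22 groups of arrays were looked at, and chance flags about 1 in 20. Skull 3 was also the highest skull array for Enpp1 and Ankh. The log2 ratios of 3′ to 5′ control probe sets, a measure of RNA quality, were 0.28 to 0.59 (Gapdh) and 0.75 to 1.04 (beta-actin) on the skull arrays, against 0.21 to 0.37 and 0.57 to 0.86 on the limb arrays, and their part in these values was not tested.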

How the results depend on the processing

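Under the 18 alternatives other than limb 5 alone, the probe sets of Enpp1, Ankh, Alpl, Phospho1, Slc20a1 and Anxa5 passed the test with the same sign in 18 of 18, and those of Slc20a2, Phex and Fgf23 in none. Ankh kept its 2-fold difference in 18 and Enpp1 in 17. With each array left out in turn, the genes past the test and 2-fold numbered 1 to 2 (1 without skull 3), and the log2 differences were 0.98 to 1.24 for Enpp1, 1.30 to 1.41 and 1.2 to 1.34 for Ankh, 0.46 to 0.57 for Alpl, 0.49 to 0.62 for Phospho1, 0.83 to 0.98 for Anxa5, -0.37 to -0.31 for Slc20a1, -0.30 to -0.04 and -0.13 to 0.11 for Slc20a2, 0.07 to 0.26 for Phex and -0.79 to 0.10 for Fgf23. The sign turned for Slc20a2 1372747_at with the signals as deposited (0.03), without skull 4 (0.11), without limb 2 (0.02) and with limb 5 alone (0.22), and for Fgf23 without skull 1 (0.10). The cause was not tested. With limb 5 alone, an alternative chosen after seeing the data, 1 gene passed the test and 1 also passed 2-fold, the median difference of the 11 probe sets was 0.70 against 0.53, and of the further genes 11 passed and 8 passed 2-fold, against 35 and 15; fewer samples entered this comparison. Leaving out each array gave 32 to 36 and 11 to 16 further genes. Ahsg was at -0.10 with a floor at the 25th percentile (adjusted p = 0.31) and Slc25a3 at 0.23 with quantile normalization (adjusted p = 0.00346). The sources do not state that same-numbered arrays are paired. Deviations from the site means correlated at -0.01 to 0.0433 for same-numbered arrays and at -0.0367 to 0.0224 for differently numbered arrays. These values do not settle whether the arrays were paired. With a replicate block, which left out limb 5, 6 of the 9 genes passed the test and 2 also passed 2-fold. The median difference was 0.46 and Enpp1 was at 1.12 (limma, adjusted p = 0.0257). Leaving out limb 5 without a block gave the same differences, 0.46 and 1.12. No call of the 9 genes changed, and 34 further genes passed the test and 14 also 2-fold. Signals near 8.34 units, those of Fgf23, Abcc6, Ahsg and Kl, limit what can be measured.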
